A study of Homo sapiens with 24 samples.

Results

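The lysosome and autophagy genes described here are 33 genes chosen by name from a table of 34595 gene rows. They comprise 21 genes of the lysosome, which are LAMP1, LAMP2, CTSA, CTSB, CTSD, CTSL1, CTSZ, GLA, GAA, GUSB, HEXA, NEU1, PSAP, NPC1, NPC2, MCOLN1, ATP6V0D1, ATP6V1A, ATP6V1B2, ATP6V1H and TFEB, and 12 genes of autophagy, which are SQSTM1, GABARAP, GABARAPL1, GABARAPL2, MAP1LC3B, ULK1, BECN1, ATG5, ATG7, ATG12, WIPI1 and UVRAG. All 33 names were found, CTSL1 being the older name of CTSL. Their transcripts were measured on 24 one-colour Illumina bead arrays, 2 for each of 12 groups, from cultures of 2 established lines of human pancreatic carcinoma, PANC-1 (here Panc1) and Capan-1 (here Capan1), kept in medium with 10% serum.

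In each line, 1 group was incubated with the vehicle DMSO and 1 with a small-molecule IRAK1/4 kinase inhibitor (10 uM, 24 h). The other 4 groups of a line carried retroviral short hairpins, named scramble (the control hairpin), shIRAK1, shIRAK4 and shIRAK1+4. All 4, scramble included, had 2 infections, the first selected with puromycin (1 ug/mL, 48 h) and the second, which also carries GFP, with geneticin (500 ug/mL, 4 days). The second virus was scramble in the scramble, shIRAK1 and shIRAK4 cells and shIRAK4 in the shIRAK1+4 cells. The series description assigns hairpins to PANC-1 alone, although the sample labels give hairpin arrays for both lines. Whether paired arrays represent independent cultures is not stated in the labels, so p-values measure the spread between arrays, which may be technical.

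Lysosomes are acidic organelles in which hydrolases break down proteins, lipids and sugars. A proton pump, the V-ATPase, acidifies them, and membrane proteins such as LAMP1 and LAMP2 line them. Autophagy wraps cytoplasm in a double membrane, the autophagosome, which then fuses with the lysosome. The kinase ULK1 and the lipid kinase complex of BECN1 start the membrane, ATG7, ATG5 and ATG12 attach small proteins of the MAP1LC3B and GABARAP families to it, and SQSTM1 carries cargo to them. The transcription factor TFEB, held in check by growth signalling at the lysosome, activates many genes of both groups through a short promoter motif. Pancreatic cancer cells are known for a high use of both pathways. IRAK1 and IRAK4 relay signals from interleukin-1 and Toll-like receptors.

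The motif that TFEB binds has the core CACGTG, which reads the same on both strands. Promoter windows from 250 bases before to 50 after the start site (RefSeq, GRCh38.p14) were given for 25 of the 33 members. The core was found in 7 of the 14 lysosome windows (50%), in 0 of the 11 autophagy windows and in 8.77% of the windows of 27305 genes. Among the 15843 protein-coding genes of these the share was 10.9%. The longer form TCACGTGA, which contains the core and also reads the same on both strands, stood in 5 of the lysosome windows, against 1.18% of all genes and 1.65% of protein-coding genes. LAMP1 held 6 copies, CTSA, GAA and MCOLN1 held 2 each, and ATP6V0D1, CTSD and NEU1 held 1 each. A match is a description of the letters and not evidence of binding. The following 4 stretches belong to the 4 lysosome members that rose with a hairpin in Panc1, and capitals mark the core.
LAMP1 (chr13:113297007-113297268, plus strand): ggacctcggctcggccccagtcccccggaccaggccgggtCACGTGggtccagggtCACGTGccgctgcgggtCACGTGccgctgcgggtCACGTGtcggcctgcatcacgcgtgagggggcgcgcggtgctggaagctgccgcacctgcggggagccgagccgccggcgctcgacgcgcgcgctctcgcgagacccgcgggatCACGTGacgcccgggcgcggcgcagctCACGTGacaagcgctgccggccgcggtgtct
CTSA (chr20:45891253-45891355, plus strand): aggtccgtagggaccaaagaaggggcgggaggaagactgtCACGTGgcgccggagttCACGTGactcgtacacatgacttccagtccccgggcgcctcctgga
NEU1 (chr6:31862902-31862987, minus strand): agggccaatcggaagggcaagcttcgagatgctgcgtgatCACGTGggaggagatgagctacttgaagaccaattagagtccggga
ATP6V0D1 (chr16:67481171-67481256, minus strand): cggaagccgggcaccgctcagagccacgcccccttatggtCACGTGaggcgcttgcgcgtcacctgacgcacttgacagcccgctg
In these stretches the first core base of LAMP1 lies between 192 and 1 bases before the start site (positions -192, -176, -159, -142, -28 and -1), in CTSA at -42 and -25, in NEU1 at -126 and in ATP6V0D1 at -59.

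MCOLN1, a lysosomal calcium channel, and CTSD, the aspartic protease of the lysosome, also hold the core, and both fell in Panc1 scramble cells against DMSO, as did the 4 above. So did 3 of the 6 lysosome members tested whose window lacks the core and 5 of the 7 with no window, beside 15.3% of all rows. The difference between these shares was not tested. The stretches of MCOLN1, CTSD and GAA are shown for comparison.
MCOLN1 (chr19:7522543-7522653, plus strand): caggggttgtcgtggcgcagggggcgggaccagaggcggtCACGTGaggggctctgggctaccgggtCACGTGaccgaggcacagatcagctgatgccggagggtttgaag
CTSD (chr11:1763929-1764014, minus strand): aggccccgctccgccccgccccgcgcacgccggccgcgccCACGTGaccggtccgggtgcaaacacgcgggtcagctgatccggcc
GAA (chr17:80101465-80101595, plus strand): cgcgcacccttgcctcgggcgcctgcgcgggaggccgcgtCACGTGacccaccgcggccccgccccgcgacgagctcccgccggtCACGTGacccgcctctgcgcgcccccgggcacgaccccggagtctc
The GAA stretch, from the gene of acid alpha-glucosidase, has its cores at -76 and -31, that of MCOLN1 at -41 and -14 and that of CTSD at -47. GAA was above its detection limit on 10 of 24 arrays, all from Capan1, and was tested in no comparison within Panc1.

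Levels are log2 intensities after background correction and quantile normalization, and a level was taken as present when it lay above its array's detection limit, the signal of single-probe rows at a detection p near 0.01. Between 10939 and 13237 rows per array lay above it, and the number of arrays limits the precision. The lowest counts, 10939 and 11153, were those of the Panc1 scramble arrays, whose limits after normalization were the highest (5.43 and 5.375). Levels of different genes come from different probes and are not set against each other. Of the 33 members, 29 were above the limit on all 24 arrays. ATG5 was above it on 22 arrays, HEXA on 19, GAA on 10 and TFEB on none, with TFEB levels of 4.45 to 4.96. Within groups, the median SD over rows was between 0.0748 in Panc1 DMSO and 0.195 in Capan1 shIRAK1+4. All fold changes are log2 differences of group means ± SE from 1 limma fit over the 24 arrays. A gene is said to rise or fall where its p-value, adjusted by Benjamini and Hochberg's method over all rows tested in that comparison, was under 0.05. A value in brackets after the name of a left-out array is the adjusted p without that array.

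The targeted genes bear on the labels as follows. IRAK1 measured 11.29 and 11.52 on the Panc1 scramble arrays, 8.33 and 9.57 in shIRAK1 and 8.37 and 8.66 in shIRAK1+4, log2 changes of -2.46 ± 0.29 (adjusted p = 9.6e-05) and -2.90 ± 0.29 (adjusted p = 1.57e-05). In Capan1 it measured 10.47 and 10.42 in scramble, 9.55 and 8.97 in shIRAK1 (-1.18 ± 0.29, adjusted p = 0.0533) and 9.10 and 8.61 in shIRAK1+4, a fall, with a log2 change of -1.59 ± 0.29 (adjusted p = 0.00549) that ended without scramble replicate 1 (adjusted p = 0.0533). IRAK4 was below the limit on every scramble, shIRAK4 and shIRAK1+4 array of both lines, so its knockdown was not tested and it does not check those labels. IRAK4 was lower in the Panc1 scramble control than with DMSO (at least 1.66-fold, adjusted p = 0.000774) and higher in Panc1 shIRAK1 than in scramble (at least 1.37-fold, adjusted p = 0.00917), of which the second call ended without scramble replicate 1 (0.0845) or shIRAK1 replicate 2 (0.0578). In Capan1 shIRAK4, which carries no IRAK1 hairpin by its label, IRAK1 measured 9.64 and 9.56, below both scramble arrays and near the higher shIRAK1 array (-0.84 ± 0.29, adjusted p = 0.0843). Epithelial markers were above the limit on all 12 arrays for 10 of 10 genes in Capan1 and 6 of 10 in Panc1. Of 6 mesenchymal markers, 2 were above the limit on all 12 arrays of each line. ZEB1, FN1 and TWIST1 were above the limit on no array of either line and SPARC on no Capan1 array. Mesenchymal sums in Capan1 thus rest on VIM and CDH2, beside signal below the limit. Of 8 immune markers, 1 was above it on all Panc1 arrays and 2 on all Capan1 arrays, while PTPRC, CD3E, CD79A, MS4A1 and CSF1R were on no array of either line. Sums of immune markers thus rest on CD14 and CD68 in Panc1, and on CD14, CD68 and LYZ in Capan1, beside signal below the limit. Of 7 fibroblast and stellate cell markers, 0 and 1 were above it on all arrays of Panc1 and Capan1, with DCN, PDGFRB, COL1A2 and FAP on none, and of 5 endothelial markers 0 in either line.

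With the inhibitor in Panc1, 3 of the 31 members tested rose and none fell, against 7.34% of all rows tested changing (4.06% higher and 3.28% lower). The 3 were MAP1LC3B, ULK1 and ATG12, all of the autophagy class, and 0 of 19 lysosome members passed the test (1 of them at an unadjusted p under 0.05). The median fold change was 0.22 over the 12 autophagy members and 0.03 over the lysosome members, beside 0.00 over all rows. Leaving out any single array of the 4 ended all 3 calls, so that 0 members were called. Of other genes of these pathways, 4 of 51 lysosome genes rose and 1 fell, 0 of 28 autophagy genes changed (4 at an unadjusted p under 0.05), and 4 of 16 genes of nutrient sensing at the lysosome rose, led by SESN2, a stress-induced inhibitor of growth signalling, 1.80 ± 0.34 (adjusted p = 0.00536). The SESN2 call ended without DMSO replicate 2 (adjusted p = 0.0501) or inhibitor replicate 2 (0.0517). The summed linear level of the epithelial markers was 7969 to 8063 with DMSO and 4243 to 4647 with the inhibitor, and its part in the result was not tested. In these bulk cultures, fewer cells of a kind and less RNA per cell cannot be told apart.

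With the inhibitor in Capan1, the autophagy members GABARAPL2, ULK1 and ATG5 rose, SQSTM1 fell, and 1 lysosome member, ATP6V1B2, fell. ATG5 was above the limit on 1 of the 2 DMSO arrays and so passed the filter through the inhibitor group alone. These 5 of 32 members tested stand beside 35.6% of all rows (18.1% higher and 17.5% lower), a share of 15.6% for the members, and the difference between these shares was not tested. Class medians were -0.04 for autophagy and -0.02 for lysosome, beside 0.01 for all rows. Of 50 other lysosome genes, 11 rose and 9 fell. The largest changes there were CTSH, a cysteine protease, which rose by 1.36 ± 0.30 (adjusted p = 0.00251), and GALC, which degrades galactolipids, which fell by 1.84 ± 0.26 (adjusted p = 8.62e-05). DDIT4, a stress-induced inhibitor of growth signalling, rose by 3.12 ± 0.44 (adjusted p = 8.38e-05), and all 3 of these calls held without any 1 array. The number of members called was 3 without DMSO replicate 1, 13 with the spread taken from the Capan1 drug arrays alone and 10 with array weights. The Capan1 scramble comparison, which shares these DMSO arrays, gave log2 changes of 1.46 for CTSH, -1.82 for GALC and 2.11 for DDIT4. These changes are thus not particular to the inhibitor. The summed level of mesenchymal markers was 538 to 540.7 with DMSO and 1599 to 1615 with the inhibitor, and that of immune markers 1666 to 1706 and 564 to 609.2, and their part in the result was not tested. Only VIM and CDH2 of the mesenchymal list were above the limit on any Capan1 array.

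**Figure D1:**
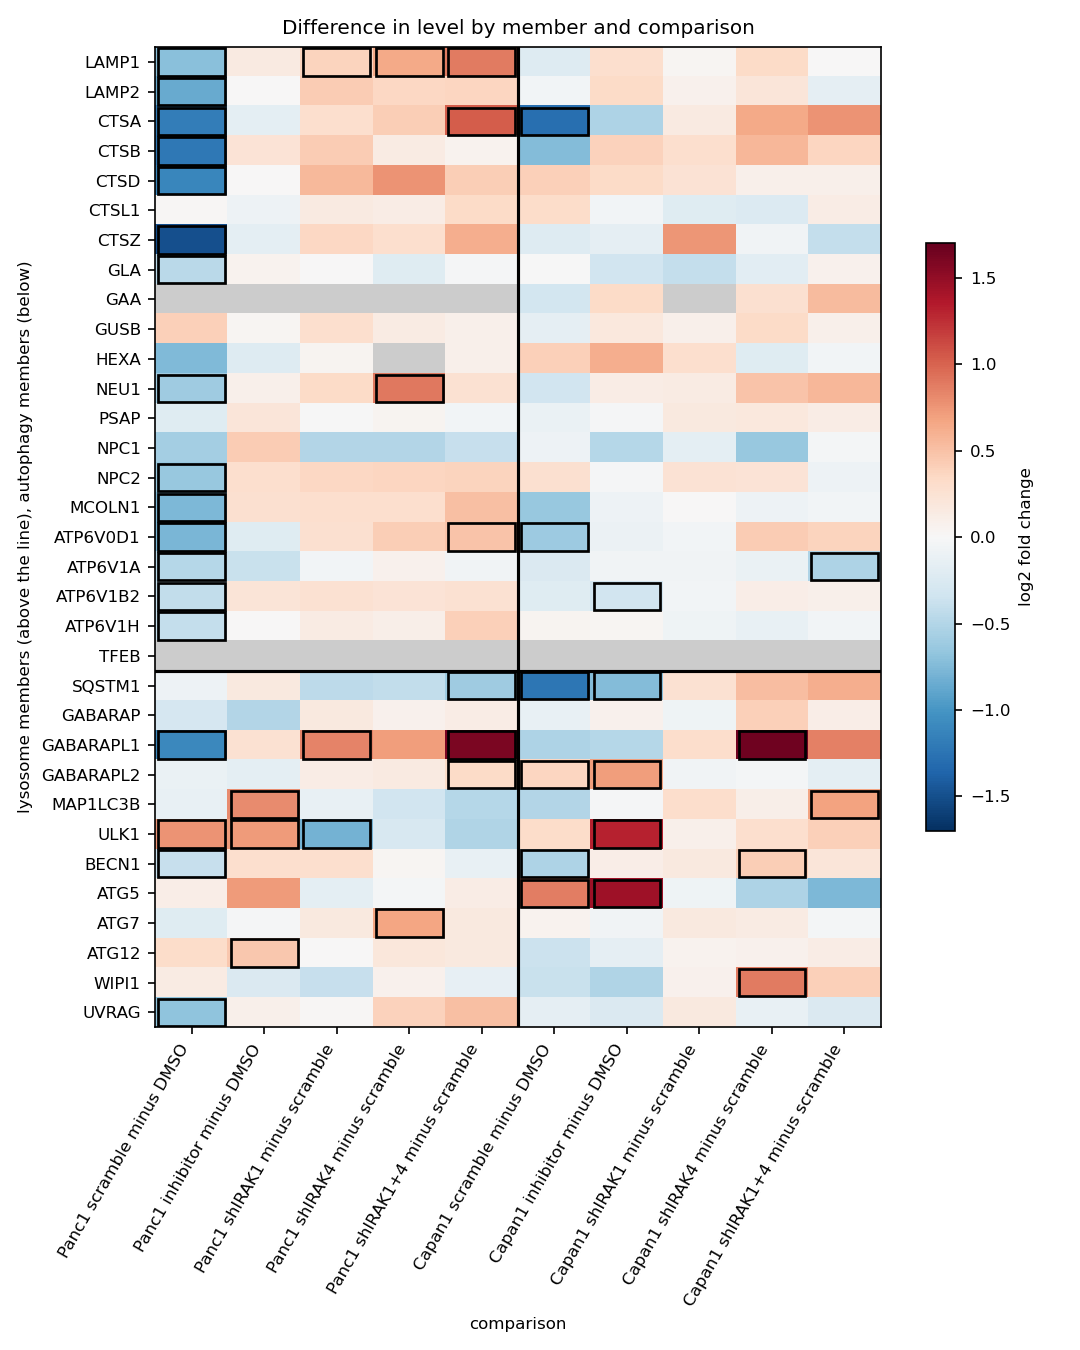
Log2 fold changes of the 33 members (vertical) in the 10 comparisons within a line (horizontal), as colours from lower to higher; black outlines mark an adjusted p under 0.05 and grey cells were not tested. The column for Panc1 scramble against DMSO carries 18 outlines, 17 of them for falls, and the column for Capan1 shIRAK1 carries 0.

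In Panc1 scramble cells against DMSO cells, 17 of the 31 members tested fell and ULK1 rose, against 28.6% of all rows (13.3% higher and 15.3% lower). Of the lysosome members, 14 of 19 (73.7%) fell, with a median of -0.65, and of the autophagy members 3 of 12 fell, with a median of -0.12, beside -0.01 over all rows. HEXA, below the limit on scramble replicate 1, passed the filter through DMSO alone and was not called. Of 50 other lysosome genes 16 fell and 1 rose, with a median of -0.36, and the largest fall was that of IDS, which degrades heparan sulfate, with a log2 change of -1.21 ± 0.10 (adjusted p = 1.17e-06). Of 27 other autophagy genes 7 fell and 2 rose, with a median of -0.24, and of 16 nutrient sensing genes 4 fell and 1 rose. RRAGD, a GTPase that recruits growth signalling to the lysosome, fell by 1.76 ± 0.14 (adjusted p = 1.17e-06), and BNIP3L, a receptor that marks mitochondria for autophagy, rose by 1.52 ± 0.33 (adjusted p = 0.00364). The calls of IDS, RRAGD and BNIP3L held without any 1 array. The count of 18 members went down to 8 when DMSO replicate 1, DMSO replicate 2 or scramble replicate 1 was left out and to 12 at most, and it was 10 without the detection filter.

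Scramble and DMSO cells differ in virus, drug selection and time together, which cannot be told apart. In each line the DMSO arrays are also those of the inhibitor comparison. The Panc1 scramble arrays had the fewest rows above the limit (10939 and 11153, against 11851 and 11518 with DMSO), and the part of this in the result was not tested. Of the 6 lysosome members tested whose promoter window holds CACGTG, 6 fell in Panc1 scramble cells, beside 3 of the 6 whose window does not hold it and 5 of the 7 with no window. Without DMSO replicate 2 or scramble replicate 1 the calls of CTSA, CTSD, NEU1 and MCOLN1 ended, which left 2 of those 6. The summed epithelial marker level was 3924 to 3975 in scramble against 7969 to 8063 with DMSO, and that of immune markers 848.2 to 853.8 against 1291 to 1348, with PTPRC, CD3E, CD79A, LYZ, MS4A1 and CSF1R below the limit on all Panc1 arrays. Only CD14 and CD68 of the immune list were above the limit on any Panc1 array. The part of these marker lists in the result was not tested.

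In Capan1, scramble against DMSO gave 6 called members of 32, with 17.8% of all rows called (9.17% higher and 8.68% lower). CTSA, ATP6V0D1, SQSTM1 and BECN1 fell, and GABARAPL2 and ATG5 rose. ATG5 was above the limit on 1 of the 2 DMSO arrays and so passed the filter through the scramble group alone. HEXA also passed it through scramble alone and GAA through DMSO alone, and neither was called. The medians were -0.18 over the lysosome members, of which 2 of 20 fell, and -0.26 over the autophagy members, beside 0.01 over all rows. Without scramble replicate 2 the count was 2, and it was 2 under median scaling, 13 with the spread from these arrays alone and 10 with array weights. Other lysosome genes gave 10 falls and 4 rises among 49, led by GALC, which fell by 1.82 ± 0.26 (adjusted p = 0.000221), and CTSH, which rose by 1.46 ± 0.30 (adjusted p = 0.00327). Both calls held without any 1 array. The inhibitor comparison of Capan1 shares the DMSO arrays, and there GALC also fell and CTSH also rose. Of 27 other autophagy genes 2 fell and 0 rose. Immune markers summed to 1666 to 1706 with DMSO and 466.4 to 479.3 in scramble. Mesenchymal markers, of which only VIM and CDH2 were above the limit, summed to 538 to 540.7 and 1380 to 1404. The part of these marker lists in the result was not tested.

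Each hairpin was compared with scramble in the same line, and the 3 comparisons of a line share the same 2 scramble arrays. In Panc1, shIRAK1 gave 3 called members of 31 (LAMP1 and GABARAPL1 higher, ULK1 lower), with 11.9% of all rows called (6.56% higher and 5.38% lower). For shIRAK4 it was 3 of 30 (LAMP1, NEU1 and ATG7 higher) with 14.9% of all rows called (8.13% higher and 6.72% lower), and for shIRAK1+4 it was 6 of 31 (LAMP1, CTSA, ATP6V0D1, GABARAPL1 and GABARAPL2 higher, SQSTM1 lower) with 16.3% (9.37% higher and 6.96% lower). The members' shares were 9.68%, 10% and 19.4%, each near its background. With 1 array left out the count for shIRAK1 was 0 without scramble replicate 1, 1 without scramble replicate 2 or shIRAK1 replicate 1, and 4 without shIRAK1 replicate 2. For shIRAK4 it ran from 2 without scramble replicate 1 to 5 without shIRAK4 replicate 2, and for shIRAK1+4 it was 3 without either scramble array, 2 without shIRAK1+4 replicate 2 and 4 without replicate 1.

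The lysosome members lay mostly above scramble in these Panc1 hairpins. Positive fold changes were found for 16 of 19 with shIRAK1, 16 of 18 with shIRAK4 and 15 of 19 with shIRAK1+4, beside 51.1%, 50.3% and 52.7% of all rows, and the medians were 0.28, 0.26 and 0.32, beside 0.01, 0.00 and 0.03. HEXA, above the limit on 1 of the 2 scramble arrays, entered 2 of these counts through the hairpin group alone. Its means there were 5.52 with shIRAK1 and 5.57 with shIRAK1+4, against 5.48 in scramble. With shIRAK4 its mean was lower, at 5.17, and it was not tested. Autophagy medians were 0.02, 0.07 and 0.12. The 3 sets of values share the scramble arrays, in which the lysosome members were low against DMSO and the fewest rows lay above the limit. With median scaling the medians over all rows were themselves 0.24, 0.16 and 0.20, and those of the lysosome members 0.54, 0.39 and 0.47. Rises among other lysosome genes numbered 3 of 49 (6.12%), 5 of 50 (10%) and 11 of 51 (21.6%), with 0 falls each (unadjusted p under 0.05 lower for 3, 0 and 0). Over all rows 6.56%, 8.13% and 9.37% were higher and 5.38%, 6.72% and 6.96% lower, and the difference between these shares was not tested. The 11 include MITF, which was below the limit on both scramble arrays and passed the filter through shIRAK1+4 alone (at least 1.08-fold). IDS rose by 0.85 ± 0.10 (adjusted p = 6.55e-05) with shIRAK1 and 0.83 ± 0.10 (adjusted p = 6.12e-05) with shIRAK4, calls that held without any 1 array, and CTSH led with shIRAK1+4 at 1.21 ± 0.30 (adjusted p = 0.0118), a call that ended without scramble replicate 1 (0.0569), scramble replicate 2 (0.0631) or shIRAK1+4 replicate 2 (0.0855).

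Other autophagy genes and nutrient sensing genes changed in small numbers in the Panc1 hairpins. ATG4A, a protease that processes the small proteins of the autophagosome, rose by 0.86 ± 0.16 (adjusted p = 0.00273) with shIRAK1 and 0.96 ± 0.16 (adjusted p = 0.00104) with shIRAK4, and both calls held without any 1 array. With shIRAK1, 2 of 27 other autophagy genes rose and 0 fell, with shIRAK4 2 of 26 rose and 0 fell, and with shIRAK1+4 1 of 27 rose and 2 fell. In that last comparison BNIP3, a relative of BNIP3L, fell by 1.39 ± 0.30 (adjusted p = 0.00516), a call that held without any 1 array. Among nutrient sensing genes 0 of 14 were called with shIRAK1 (4 at an unadjusted p under 0.05), 2 of 13 rose and 1 fell with shIRAK4, and 1 of 14 rose with shIRAK1+4. Beside both lists, 6.56%, 8.13% and 9.37% of all rows were higher and 5.38%, 6.72% and 6.96% lower. Epithelial markers summed to 7823 to 9149 in shIRAK1, 7625 to 10150 in shIRAK4 and 6648 to 7066 in shIRAK1+4, against 3924 to 3975 in scramble. Fibroblast and stellate cell markers summed to 337.9 to 369.4, 512.3 to 715.6 and 270.8 to 305.6 in these groups against 228.9 to 243.5, and immune markers to 985.6 to 1454, 1019 to 1390 and 1025 to 1060 against 848.2 to 853.8. Of the fibroblast and stellate cell list, DCN, LUM, PDGFRB, COL1A2 and FAP were above the limit on no Panc1 array, which leaves COL1A1 and ACTA2. The part of these marker lists in the result was not tested.

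In Capan1 the hairpins gave 0, 3 and 2 called members. With shIRAK1 0 of 31 were called by limma (2 at an unadjusted p under 0.05, 1 higher and 1 lower), with 2.01% of all rows called (1.07% higher and 0.937% lower), and 1 was called with array weights. With shIRAK4 3 of 32 rose (GABARAPL1, WIPI1 and BECN1), all of the autophagy class, with 9.57% of all rows called (4.92% higher and 4.65% lower), and with shIRAK1+4 MAP1LC3B rose and ATP6V1A fell among 32, with 6.76% called (2.9% higher and 3.87% lower). Lysosome medians were 0.07, 0.15 and 0.07 and autophagy medians 0.12, 0.22 and 0.17, beside -0.01, -0.05 and -0.02 over all rows. Positive fold changes were found for 12 of 19, 12 of 20 and 12 of 20 lysosome members and for 9, 9 and 8 of the 12 autophagy members. GAA, above the limit on 1 of the 2 scramble arrays, passed the filter through the hairpin group alone with shIRAK4 and shIRAK1+4. Its means there were 5.41 and 5.68, against 5.13 in scramble, and it was not tested with shIRAK1. With 1 array left out, the count for shIRAK4 ran from 1 (without scramble replicate 1 or 2) to 5 (without shIRAK4 replicate 2), and it was 0 with the spread taken from the Capan1 hairpin arrays alone. For shIRAK1+4 it was 0 without either scramble array and 1 without shIRAK1+4 replicate 2, and it reached 6 without replicate 1. It was also 0 or 1 under 9 of the 10 other settings. Immune markers summed to 397.6 to 668.9 in shIRAK1, 740 to 869 in shIRAK4 and 593 to 925.1 in shIRAK1+4, against 466.4 to 479.3 in scramble. Mesenchymal markers summed to 1061 to 1387, 732.1 to 1304 and 796.9 to 984.6 against 1380 to 1404, and fibroblast and stellate cell markers to 373.2 to 416.4, 527.9 to 677.6 and 358.3 to 398.8 against 411.9 to 457.6. Of that last list, DCN, PDGFRB, COL1A2 and FAP were above the limit on no Capan1 array, nor were ZEB1, FN1, SPARC and TWIST1 of the mesenchymal list. The part of these marker lists in the result was not tested.

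Other pathway genes in the Capan1 hairpins followed the same small numbers. Of other lysosome genes, 0 of 46 were called with shIRAK1 (7 at an unadjusted p under 0.05), 4 of 49 rose and 1 fell with shIRAK4, and 3 of 47 rose and 1 fell with shIRAK1+4. GALC rose by 1.14 ± 0.26 (adjusted p = 0.0127) with shIRAK4, a call that ended without scramble replicate 2 (0.11) or shIRAK4 replicate 2 (0.0889). SGSH, which degrades heparan sulfate, rose by 1.14 ± 0.30 (adjusted p = 0.0365) with shIRAK1+4, a call that ended without scramble replicate 1 (0.0578), scramble replicate 2 (0.247) or shIRAK1+4 replicate 1 (0.163). Of other autophagy genes 1 of 26 rose with shIRAK1, 1 of 26 rose and 1 fell with shIRAK4, and 0 of 25 were called with shIRAK1+4 (4 at an unadjusted p under 0.05). Beside these lists, 1.07%, 4.92% and 2.9% of all rows were higher and 0.937%, 4.65% and 3.87% lower. RRAGA, a GTPase of nutrient sensing, was the 1 called gene of its list with each hairpin, at 0.42 ± 0.10 (adjusted p = 0.0416) with shIRAK1, 0.37 ± 0.10 (adjusted p = 0.0309) with shIRAK4 and 0.52 ± 0.10 (adjusted p = 0.00685) with shIRAK1+4, and these comparisons share the scramble arrays. The RRAGA call ended without any 1 of the 4 arrays with shIRAK1 (adjusted p 0.105 to 0.262), without scramble replicate 1 (0.0684), scramble replicate 2 (0.19) or shIRAK4 replicate 1 (0.183) with shIRAK4, and without scramble replicate 2 (0.0708) with shIRAK1+4.

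**Figure D2:**
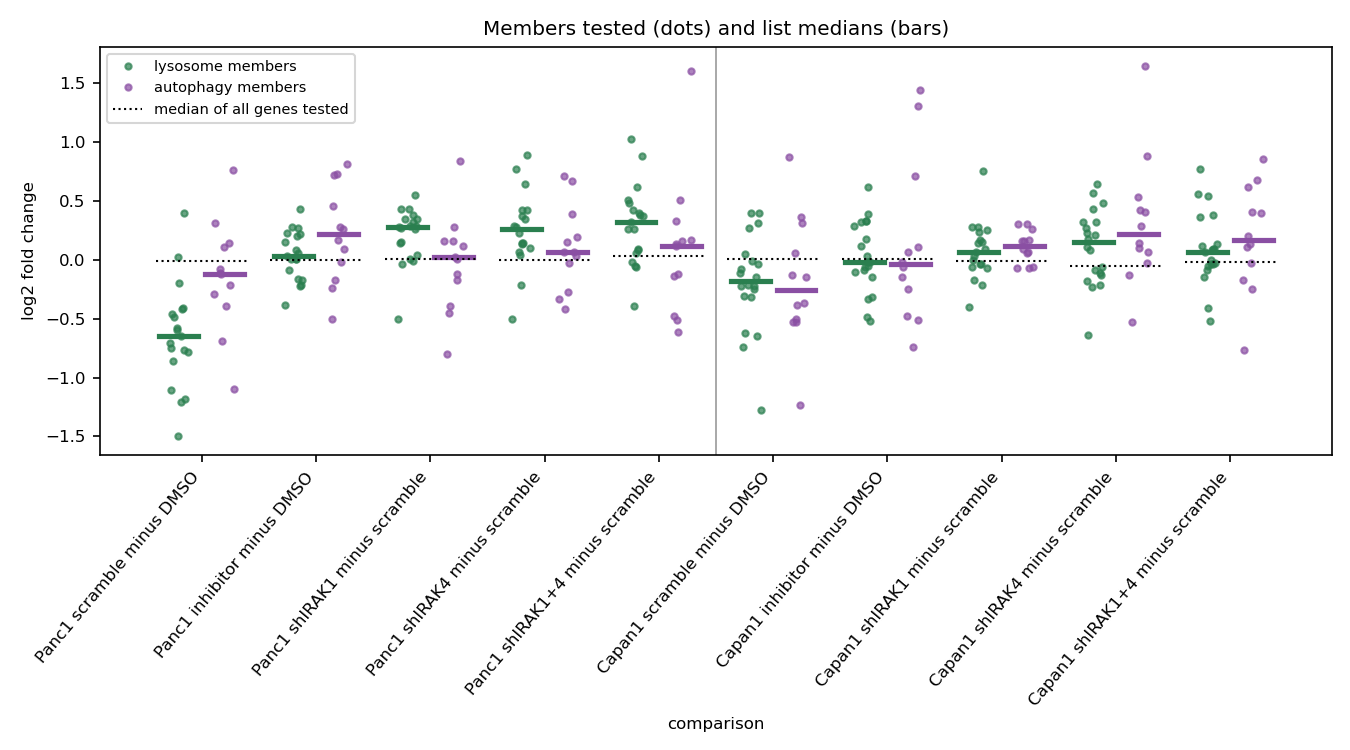
Log2 fold change (vertical) of each tested lysosome and autophagy member (points) in the 10 comparisons within a line, with the class median as a bar and the median of all rows tested as a dotted line. The lysosome median is -0.65 in Panc1 scramble against DMSO and 0.28, 0.26 and 0.32 in the 3 Panc1 hairpins against scramble.

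The membrane proteins of the lysosome are described first. LAMP1, the most used marker of the lysosomal membrane, gave 11.52 and 11.38 with DMSO, 11.59 and 11.60 with the inhibitor, 10.65 and 10.83 in scramble, 11.12 and 11.12 in shIRAK1, 11.41 and 11.34 in shIRAK4 and 11.57 and 11.66 in shIRAK1+4 in Panc1. Both arrays of every Panc1 hairpin group lay above both scramble arrays, and the shIRAK1+4 arrays lay above the DMSO arrays. Against scramble it rose by 0.38 ± 0.11 (adjusted p = 0.0407) with shIRAK1, 0.64 ± 0.11 (adjusted p = 0.00163) with shIRAK4 and 0.88 ± 0.11 (adjusted p = 0.000127) with shIRAK1+4, and scramble lay below DMSO with a log2 change of -0.71 ± 0.11 (adjusted p = 0.00043). The shIRAK1 call ended without any 1 of the 4 arrays (adjusted p 0.0588 to 0.254), and the other 3 calls held under every left-out array and every other setting. Capan1 gave LAMP1 levels of 12 and 11.93 with DMSO, 12.25 and 12.27 with the inhibitor, 11.84 and 11.65 in scramble, 11.74 and 11.81 in shIRAK1, 12.26 and 11.86 in shIRAK4 and 11.82 and 11.68 in shIRAK1+4. No comparison of LAMP1 within Capan1 was called. The shIRAK1+4 effect was larger in Panc1 than in Capan1 by 0.88 ± 0.16 (adjusted p = 0.00303), a test of the difference itself, which held under every left-out array and setting.

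LAMP2, which shares the membrane with LAMP1 and serves chaperone-mediated autophagy, measured 10.61 and 10.51 with DMSO, 10.56 and 10.57 with the inhibitor, 9.66 and 9.74 in scramble, 10.30 and 9.96 in shIRAK1, 10.27 and 9.84 in shIRAK4 and 10.07 and 10.07 in shIRAK1+4 in Panc1. It fell in scramble against DMSO with a log2 change of -0.86 ± 0.16 (adjusted p = 0.00123), a call that held under every left-out array and setting. The hairpin arrays lay between scramble and DMSO, at 0.43 ± 0.16 with shIRAK1, 0.35 ± 0.16 with shIRAK4 and 0.37 ± 0.16 with shIRAK1+4 above scramble (adjusted p = 0.1, 0.151 and 0.128). MCOLN1 measured 7.16 and 7.16 with DMSO, 7.33 and 7.53 with the inhibitor, 6.38 and 6.38 in scramble, 6.49 and 6.82 in shIRAK1, 6.38 and 6.94 in shIRAK4 and 6.76 and 7.03 in shIRAK1+4 in Panc1. It also fell in scramble with a log2 change of -0.77 ± 0.23 (adjusted p = 0.0192), a call that ended without any 1 of the 4 arrays (adjusted p 0.0768 to 0.0837). NPC1, which passes cholesterol out of the lysosome, ranged from 6.96 to 9.45 over all arrays and was called in none of the 10 comparisons within a line. NPC2, its soluble partner, fell in Panc1 scramble with a log2 change of -0.65 ± 0.19 (adjusted p = 0.0215), which ended without any 1 of the 4 arrays (adjusted p 0.0759 to 0.0931).

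Among the hydrolases, CTSA and NEU1 form a complex in which the carboxypeptidase CTSA shields the sialidase NEU1. CTSA measured 9.21 and 9.57 with DMSO, 9.17 and 9.27 with the inhibitor, 8.17 and 8.26 in scramble, 8.67 and 8.33 in shIRAK1, 8.79 and 8.48 in shIRAK4 and 9.24 and 9.25 in shIRAK1+4 in Panc1. Its scramble arrays were the lowest of the line and its shIRAK1+4 arrays lay within the range of DMSO. CTSA fell in scramble with a log2 change of -1.18 ± 0.29 (adjusted p = 0.00757) and rose with shIRAK1+4 by 1.03 ± 0.29 (adjusted p = 0.0258). The first call ended without DMSO replicate 2 (0.0749) or scramble replicate 1 (0.0504) and the second without any 1 of the 4 arrays (adjusted p 0.0848 to 0.121). Capan1 gave CTSA levels of 8.99 and 8.96 with DMSO, 8.45 and 8.47 with the inhibitor, 8.02 and 7.36 in scramble, 7.91 and 7.78 in shIRAK1, 8.25 and 8.43 in shIRAK4 and 7.82 and 9.10 in shIRAK1+4. The 2 shIRAK1+4 arrays there differed by more than any other pair of CTSA values, and scramble lay below DMSO with a log2 change of -1.28 ± 0.29 (adjusted p = 0.00687), a call that ended without scramble replicate 2 (0.095).

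NEU1 measured 8.65 and 8.58 with DMSO, 8.74 and 8.65 with the inhibitor, 7.88 and 8.15 in scramble, 8.54 and 8.14 in shIRAK1, 8.77 and 9.04 in shIRAK4 and 8.26 and 8.29 in shIRAK1+4 in Panc1. The shIRAK4 arrays were the highest of the line and the scramble arrays held its lowest value. It rose with shIRAK4 by 0.89 ± 0.18 (adjusted p = 0.0048), which ended without scramble replicate 1 (0.0585). It fell in scramble against DMSO with a log2 change of -0.60 ± 0.18 (adjusted p = 0.0232), which ended without DMSO replicate 1 (0.109), DMSO replicate 2 (0.0791) or scramble replicate 1 (0.17). In Capan1 NEU1 measured 8.63 and 8.46 with DMSO, 8.85 and 8.49 with the inhibitor, 8.24 and 8.22 in scramble, 8.40 and 8.34 in shIRAK1, 8.97 and 8.44 in shIRAK4 and 8.59 and 8.98 in shIRAK1+4. No comparison of NEU1 within Capan1 was called.

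The cathepsins are proteases of the lysosome, and 3 of the 4 beside CTSA fell in Panc1 scramble cells. CTSZ measured 8.92 and 9.03 with DMSO, 8.79 and 8.83 with the inhibitor, 7.28 and 7.66 in scramble, 7.93 and 7.71 in shIRAK1, 8.05 and 7.48 in shIRAK4 and 8.05 and 8.12 in shIRAK1+4 in Panc1. Its fall in scramble was the largest of any member, -1.50 ± 0.21 (adjusted p = 0.00014), held under every left-out array and setting. All 8 Panc1 hairpin arrays, scramble included, lay below the 4 DMSO and inhibitor arrays. In Capan1 it measured 9.70 and 9.57 with DMSO, 9.50 and 9.48 with the inhibitor, 9.49 and 9.33 in scramble, 9.99 and 10.32 in shIRAK1, 9.71 and 8.99 in shIRAK4 and 9.07 and 8.92 in shIRAK1+4. Its shIRAK1+4 arrays there were below both scramble arrays. The shIRAK1+4 effect on CTSZ differed between lines by 1.03 ± 0.29 (adjusted p = 0.0335), although neither line's own change passed the test (0.62 ± 0.21, adjusted p = 0.055, in Panc1 and -0.41 ± 0.21, adjusted p = 0.249, in Capan1), and the difference ended on leaving out any single one of 6 of its 8 arrays (adjusted p up to 0.126).

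CTSB, a cysteine protease, measured 9.37 and 9.35 with DMSO, 9.57 and 9.60 with the inhibitor, 8.28 and 8.01 in scramble, 8.57 and 8.59 in shIRAK1, 8.67 and 7.90 in shIRAK4 and 8.24 and 8.17 in shIRAK1+4 in Panc1. CTSB fell in scramble with a log2 change of -1.21 ± 0.33 (adjusted p = 0.0134). The call ended without DMSO replicate 1 (0.0648), DMSO replicate 2 (0.0645) or scramble replicate 2 (0.0866). CTSD measured 9.90 and 10.15 with DMSO, 9.93 and 10.14 with the inhibitor, 8.76 and 9.07 in scramble, 10.03 and 8.91 in shIRAK1, 10 and 9.36 in shIRAK4 and 9.09 and 9.58 in shIRAK1+4 there, with shIRAK1 replicate 1 near DMSO and replicate 2 near scramble. Its fall in scramble, -1.11 ± 0.28 (adjusted p = 0.00913), ended without DMSO replicate 2 (0.0744) or scramble replicate 1 (0.078). CTSL1, another cysteine protease, ranged from 9.57 to 10.47 over the 24 arrays and was called nowhere.

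GLA, the alpha-galactosidase, fell in Panc1 scramble with a log2 change of -0.46 ± 0.14 (adjusted p = 0.0243), which ended without DMSO replicate 1 (0.118), DMSO replicate 2 (0.0767) or scramble replicate 2 (0.15). GUSB (beta-glucuronidase), HEXA (a chain of beta-hexosaminidase), GAA and PSAP (the precursor of the saposins, which present lipids to hydrolases) were called in none of the comparisons within a line in which they were tested. Over all arrays GUSB ranged from 8.01 to 9.19, HEXA from 4.89 to 6.28, GAA from 4.47 to 5.87 and PSAP from 12.30 to 13.72.

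The V-ATPase, which acidifies the lysosome, is covered by 4 members. ATP6V0D1, part of its membrane sector, measured 9.18 and 9.24 with DMSO, 8.95 and 9.05 with the inhibitor, 8.53 and 8.33 in scramble, 8.74 and 8.65 in shIRAK1, 8.81 and 8.88 in shIRAK4 and 8.80 and 9.03 in shIRAK1+4 in Panc1. Scramble was the lowest group, and every other hairpin array lay between scramble and DMSO. It fell in scramble with a log2 change of -0.78 ± 0.14 (adjusted p = 0.000871), held under every left-out array and setting, and rose with shIRAK1+4 by 0.48 ± 0.14 (adjusted p = 0.0261), which ended without scramble replicate 2 (0.166) or shIRAK1+4 replicate 2 (0.204). In Capan1 it measured 9.41 and 9.38 with DMSO, 9.33 and 9.26 with the inhibitor, 8.89 and 8.66 in scramble, 8.81 and 8.67 in shIRAK1, 9.12 and 9.29 in shIRAK4 and 8.90 and 9.41 in shIRAK1+4. It fell there in scramble with a log2 change of -0.62 ± 0.14 (adjusted p = 0.00625), which ended without scramble replicate 2 (0.075).

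ATP6V1A, ATP6V1B2 and ATP6V1H belong to the cytosolic sector, ATP6V1A and ATP6V1B2 as parts of its catalytic ring. ATP6V1A measured 10.46 and 10.42 with DMSO, 10.18 and 9.94 with the inhibitor, 9.97 and 9.94 in scramble, 9.85 and 9.98 in shIRAK1, 9.84 and 10.22 in shIRAK4 and 10.10 and 9.70 in shIRAK1+4 in Panc1. In Capan1 the ATP6V1A levels were 10.85 and 10.94 with DMSO, 10.80 and 10.87 with the inhibitor, 10.74 and 10.55 in scramble, 10.60 and 10.56 in shIRAK1, 10.72 and 10.36 in shIRAK4 and 10.19 and 10.05 in shIRAK1+4. Its Capan1 shIRAK1+4 arrays were the lowest of that line, a fall, with a log2 change of -0.52 ± 0.15 (adjusted p = 0.0486) that ended without scramble replicate 1 (0.252), scramble replicate 2 (0.103) or shIRAK1+4 replicate 2 (0.163), and under 8 of the 10 other settings. ATP6V1B2 measured 9.73 and 9.62 with DMSO, 9.93 and 9.87 with the inhibitor, 9.15 and 9.36 in scramble, 9.53 and 9.49 in shIRAK1, 9.46 and 9.51 in shIRAK4 and 9.47 and 9.55 in shIRAK1+4 in Panc1. In Capan1 the ATP6V1B2 levels were 10.04 and 10.04 with DMSO, 9.83 and 9.61 with the inhibitor, 9.91 and 9.75 in scramble, 9.87 and 9.70 in shIRAK1, 9.98 and 9.90 in shIRAK4 and 9.75 and 10.06 in shIRAK1+4. The inhibitor arrays were above DMSO in Panc1 (0.22 ± 0.11, adjusted p = 0.262) and below it in Capan1, where the fall was -0.32 ± 0.11 (adjusted p = 0.0384). That fall ended without DMSO replicate 1 (0.127), DMSO replicate 2 (0.125) or inhibitor replicate 2 (0.271).

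In Panc1 scramble against DMSO, 3 pump members of the cytosolic sector fell. ATP6V1A fell by 0.49 ± 0.15 (adjusted p = 0.0238), which ended without any 1 of the 4 arrays (adjusted p 0.082 to 0.106). ATP6V1B2 fell by 0.42 ± 0.11 (adjusted p = 0.0115), which ended without DMSO replicate 1 (0.0882) or scramble replicate 1 (0.121). ATP6V1H fell by 0.41 ± 0.13 (adjusted p = 0.033), which ended without DMSO replicate 1 (0.242), scramble replicate 1 (0.0535) or scramble replicate 2 (0.191).

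**Figure D3:**
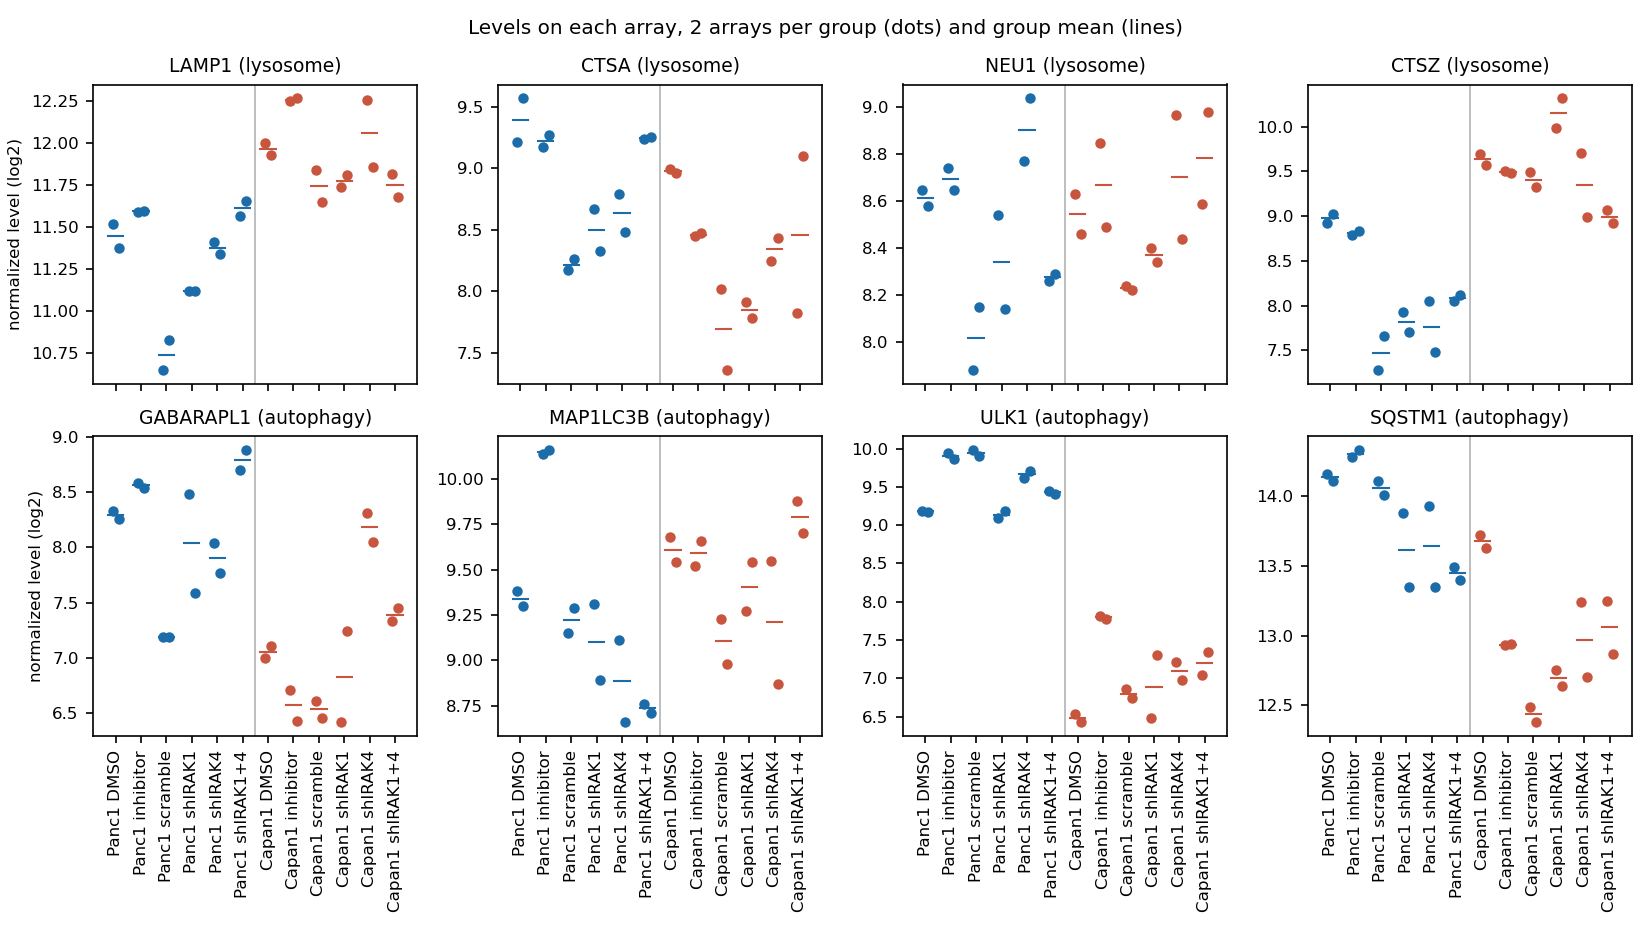
Normalized log2 level (vertical) of LAMP1, CTSA, NEU1, CTSZ, GABARAPL1, MAP1LC3B, ULK1 and SQSTM1, 1 panel each, in the 12 groups; points are the 2 arrays of a group and the line is their mean. In Panc1, GABARAPL1 is 7.19 on both scramble arrays and 8.70 and 8.88 in shIRAK1+4, and in Capan1 it is highest in shIRAK4, at 8.31 and 8.05.

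Of the autophagy members, ULK1, the kinase that starts the process, varied over 3.54 log2 units across all arrays. It measured 9.19 and 9.17 with DMSO, 9.94 and 9.86 with the inhibitor, 9.98 and 9.90 in scramble, 9.09 and 9.18 in shIRAK1, 9.62 and 9.71 in shIRAK4 and 9.45 and 9.41 in shIRAK1+4 in Panc1. The inhibitor and scramble arrays were the highest, and the shIRAK1 arrays returned to the DMSO level. It rose with the inhibitor by 0.72 ± 0.18 (adjusted p = 0.0257) and in scramble by 0.76 ± 0.18 (adjusted p = 0.00575), and fell in shIRAK1 with a log2 change of -0.80 ± 0.18 (adjusted p = 0.00896). The inhibitor call ended without any 1 of the 4 arrays (adjusted p 0.101 to 0.143) and the shIRAK1 call without scramble replicate 1 (0.0618) or shIRAK1 replicate 1 (0.0545). Under median scaling the adjusted p was 0.128 for the inhibitor, 0.0744 for scramble and 0.121 for shIRAK1, which ended all 3 calls.

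In Capan1, ULK1 measured 6.54 and 6.43 with DMSO, 7.81 and 7.78 with the inhibitor, 6.86 and 6.74 in scramble, 6.48 and 7.30 in shIRAK1, 7.21 and 6.98 in shIRAK4 and 7.04 and 7.35 in shIRAK1+4. Both inhibitor arrays stood above all 10 others, a rise of 1.31 ± 0.18 (adjusted p = 7.07e-05) that held under every left-out array and under the 9 other settings that gave it a value. The ULK1 row combines several probes, and its deposited detection p was under 0.01 on 0 of 24 arrays although its level was above the limit on all 24, so it had no value with the deposited detection p as the filter.

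BECN1, WIPI1 and UVRAG act on the growing membrane, BECN1 and UVRAG as partners of the lipid kinase and WIPI1 as a reader of its product. BECN1 measured 8.63 and 8.73 with DMSO, 9.01 and 8.90 with the inhibitor, 8.17 and 8.39 in scramble, 8.49 and 8.64 in shIRAK1, 8.52 and 8.12 in shIRAK4 and 8.15 and 8.18 in shIRAK1+4 in Panc1. In Capan1 the BECN1 levels were 10.41 and 10.39 with DMSO, 10.56 and 10.47 with the inhibitor, 9.97 and 9.77 in scramble, 10.05 and 10.04 in shIRAK1, 10.32 and 10.26 in shIRAK4 and 10.02 and 10.11 in shIRAK1+4. It fell in scramble in Panc1 with a log2 change of -0.39 ± 0.12 (adjusted p = 0.0207), which ended without DMSO replicate 1 (0.053), DMSO replicate 2 (0.127) or scramble replicate 1 (0.18). In Capan1 it fell in scramble with a log2 change of -0.53 ± 0.12 (adjusted p = 0.00591), which ended without scramble replicate 2 (0.0737), and rose with shIRAK4 by 0.42 ± 0.12 (adjusted p = 0.0351), which ended without any 1 of the 4 arrays (adjusted p 0.0564 to 0.23). The shIRAK4 arrays lay just below the DMSO arrays of that line.

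WIPI1 measured 6.84 and 6.84 with DMSO, 6.75 and 6.45 with the inhibitor, 6.85 and 7.10 in scramble, 6.73 and 6.43 in shIRAK1, 7.27 and 6.81 in shIRAK4 and 6.84 and 6.83 in shIRAK1+4 in Panc1. In Capan1 the WIPI1 levels were 7.39 and 7.37 with DMSO, 6.80 and 6.93 with the inhibitor, 7.11 and 6.90 in scramble, 6.79 and 7.34 in shIRAK1, 8.16 and 7.60 in shIRAK4 and 7.19 and 7.62 in shIRAK1+4. Its highest values were those of Capan1 shIRAK4, except that 1 shIRAK1+4 array, at 7.62, lay above shIRAK4 replicate 2, at 7.60. The rise there, 0.88 ± 0.22 (adjusted p = 0.0195), ended without scramble replicate 1 (0.0612), scramble replicate 2 (0.13) or shIRAK4 replicate 1 (0.14). UVRAG fell in Panc1 scramble with a log2 change of -0.69 ± 0.21 (adjusted p = 0.0228), which ended without any 1 of the 4 arrays (adjusted p 0.0624 to 0.13), and was called in no other comparison within a line.

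The conjugation machinery is represented by ATG7, the activating enzyme, ATG12, the small protein it activates, and ATG5, to which ATG12 is joined. ATG7 measured 9.29 and 9.24 with DMSO, 9.10 and 9.39 with the inhibitor, 9.10 and 9 in scramble, 9.19 and 9.24 in shIRAK1, 9.61 and 9.83 in shIRAK4 and 9.19 and 9.23 in shIRAK1+4 in Panc1. Both shIRAK4 arrays stood above all others of the line, a rise of 0.67 ± 0.12 (adjusted p = 0.00138) that held under every left-out array and setting. In Capan1 ATG7 measured 8.51 and 8.43 with DMSO, 8.40 and 8.43 with the inhibitor, 8.59 and 8.47 in scramble, 8.56 and 8.81 in shIRAK1, 8.59 and 8.76 in shIRAK4 and 8.59 and 8.40 in shIRAK1+4. No comparison of ATG7 within Capan1 was called. ATG12 measured 8.77 and 8.66 with DMSO, 9.28 and 9.07 with the inhibitor, 9.10 and 8.96 in scramble, 9.05 and 9.04 in shIRAK1, 9.36 and 9.07 in shIRAK4 and 9.30 and 9.09 in shIRAK1+4 in Panc1. In Capan1 the ATG12 levels were 7.15 and 7.06 with DMSO, 7.07 and 6.82 with the inhibitor, 6.73 and 6.73 in scramble, 6.93 and 6.65 in shIRAK1, 6.75 and 6.85 in shIRAK4 and 6.79 and 6.94 in shIRAK1+4. It rose with the inhibitor in Panc1 by 0.46 ± 0.13 (adjusted p = 0.0396), which ended without any 1 of the 4 arrays (adjusted p 0.0715 to 0.248).

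ATG5 measured 6.88 and 6.83 with DMSO, 7.48 and 7.68 with the inhibitor, 7.04 and 6.87 in scramble, 6.74 and 6.84 in shIRAK1, 7.2 and 6.66 in shIRAK4 and 7.13 and 7.02 in shIRAK1+4 in Panc1. In Capan1 the ATG5 levels were 5.08 and 5.52 with DMSO, 6.68 and 6.80 with the inhibitor, 6.01 and 6.33 in scramble, 5.78 and 6.41 in shIRAK1, 5.91 and 5.36 in shIRAK4 and 4.98 and 5.81 in shIRAK1+4. Replicate 1 of DMSO and of shIRAK1+4 was below the limit there. The Capan1 inhibitor arrays were the highest of that line, a rise of 1.44 ± 0.27 (adjusted p = 0.000836) that held under every left-out array and setting, against a DMSO group with 1 of 2 arrays above the limit. A rise in Capan1 scramble, 0.87 ± 0.27 (adjusted p = 0.0354), ended without any 1 of the 4 arrays (adjusted p 0.0516 to 0.254). In Panc1 both inhibitor arrays of ATG5 lay above both DMSO arrays, by 0.73 ± 0.27 (adjusted p = 0.114), which did not pass the test.

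The small proteins attached to the autophagosome are MAP1LC3B, GABARAP, GABARAPL1 and GABARAPL2. GABARAPL1 measured 8.33 and 8.26 with DMSO, 8.58 and 8.54 with the inhibitor, 7.19 and 7.19 in scramble, 8.48 and 7.59 in shIRAK1, 8.04 and 7.77 in shIRAK4 and 8.70 and 8.88 in shIRAK1+4 in Panc1. Scramble was the lowest group, and every shIRAK1, shIRAK4 and shIRAK1+4 array lay above it. GABARAPL1 fell in scramble with a log2 change of -1.10 ± 0.25 (adjusted p = 0.00429) and rose with shIRAK1+4 by 1.60 ± 0.25 (adjusted p = 0.000573), both held under every left-out array and setting. The rise with shIRAK1, 0.84 ± 0.25 (adjusted p = 0.0387), ended without scramble replicate 1 (0.14), scramble replicate 2 (0.138) or shIRAK1 replicate 1 (0.359). Capan1 gave GABARAPL1 levels of 7 and 7.11 with DMSO, 6.71 and 6.43 with the inhibitor, 6.61 and 6.46 in scramble, 6.42 and 7.24 in shIRAK1, 8.31 and 8.05 in shIRAK4 and 7.33 and 7.45 in shIRAK1+4. Both shIRAK4 arrays stood above all others of that line, a rise of 1.65 ± 0.25 (adjusted p = 0.000778) that held without any 1 array but had an adjusted p of 0.0538 with the spread of the Capan1 hairpin arrays alone.

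GABARAPL2 measured 9.86 and 9.92 with DMSO, 9.77 and 9.67 with the inhibitor, 9.74 and 9.82 in scramble, 9.90 and 9.89 in shIRAK1, 9.95 and 9.89 in shIRAK4 and 10.07 and 10.13 in shIRAK1+4 in Panc1. In Capan1 the GABARAPL2 levels were 10.54 and 10.57 with DMSO, 11.30 and 11.23 with the inhibitor, 10.93 and 10.91 in scramble, 10.78 and 10.93 in shIRAK1, 10.91 and 10.87 in shIRAK4 and 10.63 and 10.87 in shIRAK1+4. It rose with the inhibitor in Capan1 by 0.71 ± 0.08 (adjusted p = 1.78e-05), held under every left-out array and setting, with both inhibitor arrays above all 10 others of the line. In Panc1 the inhibitor arrays lay below DMSO with a log2 change of -0.17 ± 0.08 (adjusted p = 0.248), which did not pass the test. The rise with Panc1 shIRAK1+4, 0.33 ± 0.08 (adjusted p = 0.0151), ended without scramble replicate 1 (0.103) or shIRAK1+4 replicate 2 (0.106), and the rise in Capan1 scramble, 0.36 ± 0.08 (adjusted p = 0.00704), without DMSO replicate 1 (0.0578) or scramble replicate 1 (0.0511). Both also ended under median scaling (adjusted p = 0.0786 and 0.151).

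MAP1LC3B measured 9.38 and 9.30 with DMSO, 10.14 and 10.16 with the inhibitor, 9.15 and 9.29 in scramble, 9.31 and 8.89 in shIRAK1, 9.11 and 8.66 in shIRAK4 and 8.76 and 8.71 in shIRAK1+4 in Panc1. Both inhibitor arrays stood above all others of the line, a rise of 0.81 ± 0.20 (adjusted p = 0.0214) that ended without any 1 of the 4 arrays (adjusted p 0.0862 to 0.143). In Capan1 it measured 9.68 and 9.54 with DMSO, 9.52 and 9.66 with the inhibitor, 9.23 and 8.98 in scramble, 9.27 and 9.54 in shIRAK1, 9.55 and 8.87 in shIRAK4 and 9.88 and 9.70 in shIRAK1+4. The shIRAK1+4 arrays were the highest there, a rise of 0.68 ± 0.20 (adjusted p = 0.0496) that ended without any 1 of the 4 arrays (adjusted p 0.0717 to 0.245) and under 8 of the 10 other settings. GABARAP ranged from 5.69 to 7 over all arrays and was called nowhere. Its lowest and highest arrays were in Capan1 scramble (5.69) and Panc1 DMSO (7), whose second arrays measured 6.45 and 6.10.

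SQSTM1, the receptor that ties cargo to these proteins and is itself degraded by autophagy, measured 14.16 and 14.11 with DMSO, 14.28 and 14.33 with the inhibitor, 14.11 and 14.01 in scramble, 13.88 and 13.35 in shIRAK1, 13.93 and 13.35 in shIRAK4 and 13.49 and 13.40 in shIRAK1+4 in Panc1. The hairpin arrays other than scramble lay below the DMSO, inhibitor and scramble arrays, and replicate 1 of shIRAK1 and of shIRAK4 was well above replicate 2. The fall with shIRAK1+4, -0.61 ± 0.20 (adjusted p = 0.0472), ended without any 1 of the 4 arrays (adjusted p 0.114 to 0.194) and under 6 of the 10 other settings. In Capan1 it measured 13.72 and 13.63 with DMSO, 12.93 and 12.94 with the inhibitor, 12.49 and 12.38 in scramble, 12.75 and 12.64 in shIRAK1, 13.24 and 12.70 in shIRAK4 and 13.25 and 12.87 in shIRAK1+4. It was highest with DMSO and lowest in scramble. Its inhibitor arrays fell below DMSO with a log2 change of -0.74 ± 0.20 (adjusted p = 0.01), which ended without DMSO replicate 1 (0.0635) or inhibitor replicate 1 (0.0521), and in scramble with a log2 change of -1.23 ± 0.20 (adjusted p = 0.000644), held under every left-out array and setting. SQSTM1 protein was not measured.

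The 2 lines differed in most members with DMSO. In Panc1 against Capan1, 13 of 32 members were higher and 8 lower, with 60.1% of all rows called (31.7% higher and 28.4% lower), so the share of 65.6% lies near the background. The lysosome members higher in Panc1 were GLA, LAMP2, CTSD, HEXA, PSAP, NPC1 and ATP6V1H, and those lower were CTSZ, GAA, LAMP1, ATP6V1A and ATP6V1B2. Autophagy members gave 6 higher (ULK1, ATG12, ATG5, GABARAPL1, UVRAG and ATG7) and 3 lower (BECN1, GABARAPL2 and WIPI1), with a median of 0.63 beside 0.14 over the lysosome members and 0.03 over all rows. HEXA and ATG5, each above the limit on 1 of the 2 Capan1 DMSO arrays, passed the filter through Panc1 alone. GAA, below the limit on both Panc1 DMSO arrays, passed it through Capan1 alone. With 1 array left out the count of 21 ran from 17 to 19. The calls that ended were those of WIPI1 without any 1 of the 4 arrays (adjusted p 0.112 to 0.121), of NPC1 and GAA without Capan1 DMSO replicate 2 or Panc1 DMSO replicate 1, of CTSZ without replicate 1 of either line, of ATP6V1A without Capan1 DMSO replicate 2 or either Panc1 array, and of ATP6V1B2 without Panc1 DMSO replicate 2, with adjusted p up to 0.0876 among those 5.

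The largest differences between the lines were those of GLA, 2.79 ± 0.14 (adjusted p = 1.73e-10), ULK1, 2.69 ± 0.18 (adjusted p = 5.1e-09), LAMP2, 2.57 ± 0.16 (adjusted p = 2.13e-09), and CTSD, 2.00 ± 0.28 (adjusted p = 1.89e-05), all higher in Panc1. GLA measured 11.80 and 11.74 in Panc1 DMSO and 9.05 and 8.91 in Capan1 DMSO. BECN1 was the largest difference the other way, -1.72 ± 0.12 (adjusted p = 6.2e-09). These 5 held under every left-out array and every setting in which they had a value (9 for ULK1, 10 for the others). In the 12 groups GLA, ULK1, LAMP2 and BECN1 kept the 2 lines apart without overlap. GAA was below the limit on both Panc1 arrays, and Capan1 was at least 1.14-fold higher, from the mean of its arrays against the limit of the Panc1 arrays. Its fitted difference, -0.57 ± 0.17 (adjusted p = 0.00997), ended without Capan1 DMSO replicate 2 (0.0687) or Panc1 DMSO replicate 1 (0.0726).

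**Figure D4:**
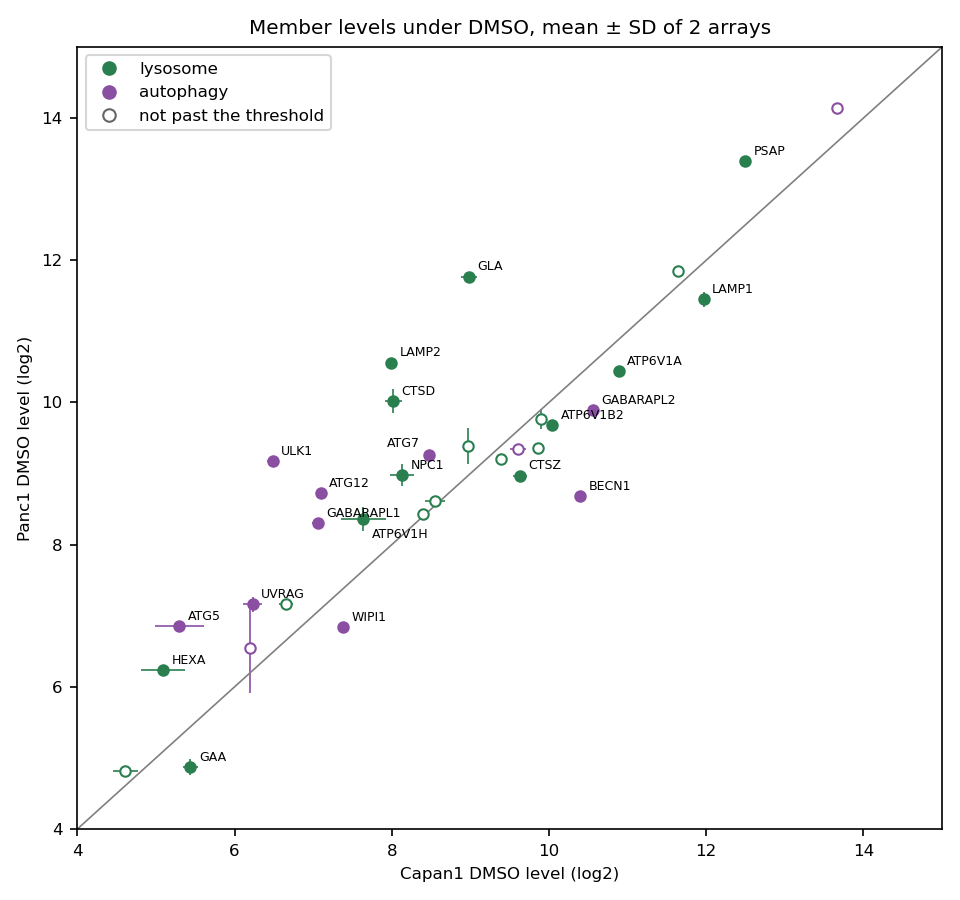
Mean log2 level of each member in Capan1 DMSO (horizontal) against Panc1 DMSO (vertical), with the SD of the 2 arrays as bars; filled points passed an adjusted p under 0.05 and the diagonal marks equal levels. GLA, ULK1 and LAMP2 lie highest above the diagonal, by 2.79, 2.69 and 2.57, and BECN1 lies 1.72 below it (the difference is -1.72).

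The response to each agent was also compared between the lines. The inhibitor effect differed for 4 of 32 members, with 17.8% of all rows called (8.77% higher in Panc1 and 9.07% lower). The shIRAK1 effect differed for 0 of 31 by limma (3 at an unadjusted p under 0.05), with 5.88% called (3.14% higher in Panc1 and 2.74% lower). The shIRAK4 effect differed for 1 of 32, with 11% called (5.96% higher and 4.99% lower), and the shIRAK1+4 effect for 6 of 32, with 12.3% called (7.32% higher and 4.97% lower). SQSTM1 is the member whose response differed between the lines for 3 of the agents (the inhibitor, shIRAK4 and shIRAK1+4, of which the last 2 share the scramble arrays). With 1 array left out the counts ran from 1 to 3 for the inhibitor (1 without Capan1 DMSO replicate 1 or 2, Capan1 inhibitor replicate 2, Panc1 DMSO replicate 2 or Panc1 inhibitor replicate 1), 0 to 1 for shIRAK1 (1 without shIRAK1 replicate 1 of either line), 0 to 3 for shIRAK4 (0 without any 1 scramble array of either line or Panc1 shIRAK4 replicate 2) and 3 to 7 for shIRAK1+4 (3 without Capan1 scramble replicate 2, Panc1 scramble replicate 1 or Panc1 shIRAK1+4 replicate 2).

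Lysosome and autophagy members are set side by side here without a test of the classes, which differ in size. Counts called were equal in Panc1 shIRAK1+4 (3 each), Capan1 shIRAK1 (0 each) and Capan1 shIRAK1+4 (1 each). With the inhibitor in Panc1, 3 of 12 autophagy and 0 of 19 lysosome members rose, beside 4.06% of all rows, and the 3 calls ended without any 1 of the 4 arrays. In the wider lists 0 of 28 other autophagy genes and 4 of 51 other lysosome genes rose there. With the inhibitor in Capan1, 3 of 12 autophagy members rose and 1 fell, and 0 of 20 lysosome members rose and 1 fell, beside 18.1% and 17.5% of all rows. Among those rises, ATG5 passed the filter through the inhibitor group alone. In Panc1 scramble against DMSO, 14 of 19 lysosome members fell (73.7%) and 3 of 12 autophagy members did (25%), beside 15.3% of all rows. Of those 14, LAMP1, LAMP2, CTSZ and ATP6V0D1 held without any 1 array, and the count over both classes was 8 without DMSO replicate 1, DMSO replicate 2 or scramble replicate 1. In the wider lists the shares that fell there lay closer, at 16 of 50 other lysosome genes (32%) and 7 of 27 other autophagy genes (25.9%).

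The lysosome members called higher in a Panc1 hairpin were LAMP1, CTSA, NEU1 and ATP6V0D1, whose windows hold the CACGTG core. Of the 6 tested members that hold it, 1 was called with shIRAK1, 2 with shIRAK4 and 3 with shIRAK1+4, beside 6.56%, 8.13% and 9.37% of all rows higher, and CTSD and MCOLN1, which also hold it, were called with none. LAMP1 was called with each hairpin. Called higher were 0 of the 6 tested members whose window lacks the core, and 0 of the 7, 6 and 7 tested that have no window. Whether the promoters with no window hold the core is not known, and the difference between these small groups was not tested. The rise of CTSA ended without any 1 of 4 arrays, that of NEU1 without scramble replicate 1, and that of ATP6V0D1 without scramble replicate 2 or shIRAK1+4 replicate 2. All 4 members also fell in the scramble arrays that serve as the reference of these comparisons.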

How the data were processed

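Per the file headers, the authors deposited non-normalized gene-level signals on a log2 scale with a detection p-value for each; per the submitters' processing notes they came from GenomeStudio 2011. How several probes were combined into 1 gene row is not given in the sources used here. A second table, log2 and quantile normalized by the authors, served only as an alternative. The log2 signals were returned to the linear scale, corrected with normexp using background values that limma 3.58.1 (R 4.3.3) inferred from the deposited detection p-values of 26905 single-probe rows, raised by an offset of 16, quantile normalized and put on the log2 scale. The detection p-values of rows with several probes did not follow their signal, so a row was tested when, in 1 or more of the groups compared, both signals exceeded their array's limit. One limma fit of 12 group means over 24 arrays gave all comparisons, with Benjamini-Hochberg adjustment over all rows tested and a threshold of 0.05. The fit was tested on simulated data.

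The members, the other gene lists and the marker lists were chosen with earlier results of these data known. Every member is accounted for, values on all arrays are given for members called in at least 1 of the 8 treatment comparisons, with CTSZ (all arrays) and CTSB, CTSD, LAMP2 and MCOLN1 (Panc1 arrays) added after their values were seen, and other lists are represented by their largest called changes. Promoter windows are those of RefSeq, GRCh38.p14. Alternatives were other background corrections, median scaling, the deposited normalized table, the deposited detection p-value or no filter, the spread of 1 line and arm, array weights, a replicate block and leaving out each array.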

Additional observations from a re-analysis of the deposited data

Results flagged for a closer look

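The effect of an agent differed between Panc1 and Capan1 for 8 members, by limma's test of the difference itself (Panc1 effect minus Capan1 effect, adjusted p over all rows tested). For the inhibitor the difference was -0.88 ± 0.12 (adjusted p = 0.000197) for GABARAPL2, 0.90 ± 0.28 (adjusted p = 0.0377) for SQSTM1, 0.61 ± 0.18 (adjusted p = 0.0271) for ATG12 and 0.54 ± 0.16 (adjusted p = 0.0289) for ATP6V1B2. GABARAPL2 rose in Capan1 alone, and its difference held without any 1 array but had an adjusted p of 0.078 under median scaling. The difference for SQSTM1 ended without any 1 of the 8 arrays (adjusted p 0.0765 to 0.107), that for ATG12 without any of 5 (up to 0.111) and that for ATP6V1B2 without any of 6 (up to 0.116).

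For shIRAK4 the effect on SQSTM1 differed by -0.95 ± 0.28 (adjusted p = 0.0431), which ended without any of 6 of the 8 arrays (adjusted p up to 0.157). For shIRAK1+4 it differed by -1.24 ± 0.28 (adjusted p = 0.011), and that of LAMP1 by 0.88 ± 0.16 (adjusted p = 0.00303), and both held under every left-out array and every other setting. SQSTM1 was lower than scramble in Panc1 shIRAK1+4 and higher than scramble in Capan1 shIRAK1+4 on every array, although the Capan1 change of 0.62 ± 0.20 (adjusted p = 0.0738) did not pass the test.

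The shIRAK1+4 effect also differed for MAP1LC3B by -1.16 ± 0.28 (adjusted p = 0.0142), for GABARAPL2 by 0.49 ± 0.12 (adjusted p = 0.0141), for ULK1 by -0.91 ± 0.25 (adjusted p = 0.0314) and for CTSZ by 1.03 ± 0.29 (adjusted p = 0.0335). The MAP1LC3B difference ended without Capan1 scramble replicate 2 or Panc1 scramble replicate 2 (adjusted p up to 0.0594) and the GABARAPL2 difference without Panc1 scramble replicate 1 or Panc1 shIRAK1+4 replicate 2 (up to 0.0535). Those of ULK1 and CTSZ ended without any of 7 and 6 of the 8 arrays (up to 0.0943 and 0.126). The shIRAK4 and shIRAK1+4 differences share the scramble arrays of both lines.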

How the results depend on the processing

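Of 81 member calls, 39 held under every other setting in which they had a value, 30 of them also without any 1 array, and none changed direction. Of 78 calls of other genes, 32 held under every such setting, 27 of them also without any 1 array, and none changed direction. The number of member calls kept was 69 with background from all rows, 78 with a robust background, 52 without background correction, 61 with median scaling, 53 in the deposited normalized table, 74 of the 75 with a value with the deposited detection p, 52 without a filter, 69 with the spread of 1 line and arm, and 79 with array weights. The cause of these changes was not tested, except that no filter adds rows to the adjustment. Having 2 arrays a group limits the precision, and members near the detection limit (GAA, HEXA, ATG5, TFEB) rest on low signal. A beadchip block was not run because the headers used here give no beadchip. Replicate numbers are shared by all groups, and same-numbered arrays deviated together with correlations of -0.02 to 0.21. The labels do not say whether a number marks a shared day or culture, and these correlations cannot decide it. A replicate block kept 81 of 81 member calls and moved the shIRAK4 effect count from 1 to 2.

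Counts of called members that moved by over 1.5 times were these. With background from all rows, Panc1 inhibitor gave 5, Capan1 shIRAK1 1, Capan1 shIRAK1+4 1, and the shIRAK1 and shIRAK4 effects between lines 1 and 3; with a robust background Capan1 shIRAK1+4 gave 0. Without background correction, Panc1 inhibitor gave 0, shIRAK1 1 and shIRAK1+4 3, Capan1 shIRAK1+4 0, and the inhibitor, shIRAK4 and shIRAK1+4 effects 1, 0 and 3. Median scaling gave 1 for Panc1 inhibitor, 1 for Capan1 shIRAK1+4, 2 for Capan1 scramble, and 2 and 3 for the inhibitor and shIRAK1+4 effects. The deposited table gave 0, 1 and 3 for Panc1 inhibitor, shIRAK1 and shIRAK1+4, 0 for Capan1 shIRAK1+4, and 1, 0 and 3 for the inhibitor, shIRAK4 and shIRAK1+4 effects. The deposited detection p gave 1 for Capan1 shIRAK1+4. No filter gave 0, 1, 3 and 10 for Panc1 inhibitor, shIRAK1, shIRAK1+4 and scramble, 1 and 0 for Capan1 shIRAK4 and shIRAK1+4, and 1 and 0 for the inhibitor and shIRAK4 effects. The spread of 1 line and arm gave 5 for Panc1 inhibitor, 13, 0, 0 and 13 for Capan1 inhibitor, shIRAK4, shIRAK1+4 and scramble, and 10 for the inhibitor effect. Array weights gave 10, 1, 0 and 10 for Capan1 inhibitor, shIRAK1, shIRAK1+4 and scramble, and 1 for the shIRAK1 effect.

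Medians that moved were, with background from all rows, 0.13 (Panc1 inhibitor, autophagy), 0.15 (shIRAK4 and shIRAK1+4, lysosome) and 0.01 (shIRAK1+4, autophagy). With median scaling they were 0.54 and 0.29 (Panc1 shIRAK1, lysosome and autophagy), 0.39 (shIRAK4, lysosome), 0.47 and 0.34 (shIRAK1+4) and -0.15 (Capan1 inhibitor, autophagy). The Panc1 shIRAK4 lysosome median was 0.24 without background correction, 0.24 in the deposited table and 0.23 without a filter, and the Panc1 inhibitor autophagy median 0.17 with the deposited detection p. For medians added after seeing the data, Panc1 scramble gave -0.82 and -0.27 with median scaling (lysosome, autophagy) and -0.08 (autophagy) with background from all rows, Capan1 scramble -0.03 (autophagy) with the latter, and the lines 0.12 with background from all rows, 0.56 with median scaling, 0.60 in the deposited table and 0.46 with the deposited detection p (autophagy). The share of called rows that were higher went, under median scaling, from 55.3% to 70.5% (Panc1 inhibitor; 68.7% in the deposited table), 54.9% to 87.8%, 54.8% to 82% and 57.4% to 83.3% (shIRAK1, shIRAK4, shIRAK1+4), 46.4% to 23.3% (scramble), 50.9% to 32.5% (Capan1 inhibitor), 51.4% to 78.6% (Capan1 shIRAK4; 66.4% in the deposited table), and 49.2% to 73.7%, 53.4% to 75.8% and 59.6% to 80.2% (inhibitor, shIRAK1 and shIRAK1+4 effects). Medians over all rows moved with it to -0.16 in Panc1 scramble, -0.10 in Capan1 inhibitor, and 0.12, 0.19 and 0.17 in those effects.

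With 1 array left out, counts ran from 0 to 0 (Panc1 inhibitor), 0 to 4, 2 to 5 and 2 to 4 (shIRAK1, shIRAK4, shIRAK1+4), 8 to 12 (scramble), 3 to 5 (Capan1 inhibitor), 0 to 0, 1 to 5 and 0 to 6 (its hairpins), 2 to 5 (its scramble), 17 to 19 (lines), and 1 to 3, 0 to 1, 0 to 3 and 3 to 7 (the inhibitor, shIRAK1, shIRAK4 and shIRAK1+4 effects). Lysosome and autophagy medians ran from 0.02 to 0.09 and 0.19 to 0.26 (Panc1 inhibitor), 0.16 to 0.31 and -0.01 to 0.06 (shIRAK1), 0.23 to 0.42 and -0.08 to 0.23 (shIRAK4), 0.25 to 0.39 and 0.01 to 0.15 (shIRAK1+4), -0.69 to -0.61 and -0.15 to -0.09 (scramble), -0.04 to 0.05 and -0.10 to 0.00 (Capan1 inhibitor), -0.07 to 0.15 and -0.04 to 0.22 (its shIRAK1), -0.06 to 0.28 and 0.16 to 0.36 (its shIRAK4), -0.04 to 0.21 and 0.14 to 0.32 (its shIRAK1+4), -0.24 to -0.10 and -0.35 to -0.19 (its scramble), and 0.10 to 0.19 and 0.59 to 0.79 (lines).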
